A study of Mus musculus with 9 samples.

Results

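Igf2r and 6 protein-coding genes of its region of chromosome 17, Tcp1, Acat3, Wtap, Pnldc1, Mas1 and Plg, were followed in mouse blastocysts. They were taken by gene symbol, and each symbol matched a row of its own, so that 7 of the 22564 genes of the deposited table are described. All embryos were C57BL/6 on day 3.5 after fertilization, came from oocytes injected with a sperm (intracytoplasmic sperm injection, ICSI), and were pooled by 5 for a library. In the dICSI-AOA group sperm heads were split from their tails by pipetting, then incubated to lower their capacity to activate the oocyte. The injected oocytes then received artificial oocyte activation (AOA) with 2.5 µM ionomycin, a calcium ionophore. The ICSI-AOA group had sperm with neither that pipetting nor that incubation, and the same ionomycin treatment. The ICSI group had such sperm and no ionomycin. Each group had 3 libraries. No library of incubated sperm without ionomycin was analysed here, so the sperm and the ionomycin cannot be told apart in dICSI-AOA against ICSI.

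Igf2r encodes the cation-independent mannose 6-phosphate receptor. It carries lysosomal enzymes from the Golgi to endosomes and takes IGF2, a fetal growth factor, from the cell surface to lysosomes for degradation. In the mouse Igf2r is imprinted and expressed from the maternal allele in most tissues, while the noncoding RNA Airn starts inside the gene, runs on the opposite strand and silences Igf2r in cis on the paternal allele. The paper describes Igf2r as expressed from both alleles up to the blastocyst, the stage studied here, and as maternal-specific only from implantation. By PCR the paper found Airn in AOA blastocysts and none in ICSI blastocysts, and it proposes that AOA starts Airn early. Airn was not analysed here. Among the neighbours Tcp1 encodes a subunit of the CCT chaperonin that folds actin and tubulin, Acat3 a thiolase-like acetyl-CoA acetyltransferase, and Wtap a subunit of the complex that writes N6-methyladenosine on RNA. Pnldc1 encodes the trimmer of piRNA 3' ends, Mas1 a receptor for angiotensin-(1-7), and Plg plasminogen, the liver-made precursor of the protease plasmin.

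On mm10 Igf2r spanned chr17:12682406-12769664 on the minus strand in the GENCODE vM21 annotation, with 3 transcripts. Igf2r-201, the protein-coding one, has 48 exons and 8887 nt. Igf2r-202 has 2 exons and 245 nt and Igf2r-203 has 4 exons and 803 nt, and both are annotated as processed transcripts without a reading frame. The sequence of Igf2r-202 (chr17:12748653-12750800, minus strand) is shown because the length that the FPKM values imply for Igf2r lay near such short transcripts in a part of the libraries. Capitals mark the 131 bases that lie in exon 2 of Igf2r-201.
Igf2r-202: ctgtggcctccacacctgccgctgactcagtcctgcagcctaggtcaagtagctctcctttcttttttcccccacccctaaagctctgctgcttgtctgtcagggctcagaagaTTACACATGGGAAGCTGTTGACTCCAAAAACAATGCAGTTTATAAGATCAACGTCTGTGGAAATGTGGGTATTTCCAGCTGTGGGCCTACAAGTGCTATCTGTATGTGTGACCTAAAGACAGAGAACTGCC

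The primers with which the study measured Igf2r by PCR are shown for where they bind. Of the annotated Igf2r transcripts only Igf2r-201 held both. The forward primer matched its bases 8498 to 8517 (chr17:12682776-12682795) and the reverse primer its bases 8718 to 8737 (chr17:12682556-12682575). The product of 240 bases lies in the 3' untranslated region, since the stop codon ends at base 7582. Neither Igf2r-202 nor Igf2r-203 would be read by these primers. The study reported that its PCR results for Igf2r matched its sequencing, in which Igf2r was higher in both AOA groups than in ICSI. Those PCR values were not analysed here.
Igf2r_F: ttcgacctataagaagcctt
Igf2r_R: gggtactttgcttttgggta

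The promoter of Igf2r on RefSeq (chr17:12769657-12769956 on GRCm38.p6, minus strand, 250 bases before the start and 50 after it) is given for its CG dinucleotides. These are sites at which DNA can be methylated, and they are in capitals. The promoter held 34 CG, the median of the 32851 promoter windows in that table was 7.0, and 7.73% of them held at least as many. In blastocysts of every group the paper found the promoter sites it read unmethylated, on the maternal and the paternal allele alike. It places paternal methylation of this promoter after implantation. The maternal imprint that it describes in blastocysts lies at the Airn promoter, which is not shown here. There it reports methylation beyond the 3' border of the imprint in AOA blastocysts, and a border kept on the maternal allele in ICSI. No methylation data were among the files analysed here.
Igf2r promoter: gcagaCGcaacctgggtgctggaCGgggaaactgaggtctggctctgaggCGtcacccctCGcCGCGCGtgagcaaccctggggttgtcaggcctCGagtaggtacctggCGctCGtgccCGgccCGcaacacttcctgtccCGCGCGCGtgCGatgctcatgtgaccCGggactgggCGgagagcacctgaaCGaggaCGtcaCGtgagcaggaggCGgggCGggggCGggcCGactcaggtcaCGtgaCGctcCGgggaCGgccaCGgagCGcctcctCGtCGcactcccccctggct

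Values of different kinds were deposited for each gene and library, namely an estimated count and FPKM (the count scaled for transcript length and library size). The estimated counts were whole numbers of fragments times a factor for each library, and the fragments were recovered by dividing by it. Libraries were shallow, with 151833 to 163248 fragments in dICSI-AOA, 150387 to 154606 in ICSI-AOA and 128176 to 172307 in ICSI, so that a count of 0 allows up to 3 fragments, or 17.4 to 23.4 CPM (fragments scaled to a common library total), by counting error alone. Markers of the blastocyst were sparse. Pou5f1, Nanog, Sox2, Eomes and Gata3 were listed at 0 in every library, and 5 of 9 trophectoderm markers had fragments, with a summed level of 72.4 to 98.0 CPM in dICSI-AOA, 38.8 to 72.5 CPM in ICSI-AOA and 133 to 203 CPM in ICSI. For inner cell mass and epiblast 2 of 8 markers had fragments (0 to 13.2 CPM in dICSI-AOA, 13.3 to 39.5 in ICSI-AOA and 7.80 to 23.2 in ICSI), and for primitive endoderm 3 of 5 (25.6 to 36.8 CPM in dICSI-AOA, 13.2 to 46.5 in ICSI-AOA and 7.06 to 54.6 in ICSI). Genes that every cell uses, named after their values were seen, were also low, with 4 to 12 fragments of Actb and 1 to 4 of Gapdh per library and none of Hprt. A gene listed at 0 can therefore not be taken as silent. None of 8 sperm markers had fragments, and 4 of 9 oocyte and 3 of 10 cumulus cell markers did, at sums of 0 to 15.6 CPM and 0 to 13.2 CPM over all libraries. The part of these differences in the results below was not tested, and in pooled embryos fewer cells of a type and less RNA per cell cannot be told apart.

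Fragments of Igf2r did not separate the groups. It had 16, 15 and 11 fragments in dICSI-AOA (replicates 1, 4 and 5), 13, 8 and 7 in ICSI-AOA (replicates 1, 4 and 5), and 4, 14 and 10 in ICSI (replicates 2, 5 and 6), the order in which libraries are given throughout. ICSI replicate 2 was lowest, the groups overlapped, and group means were 89.5 ± 19.2 CPM in dICSI-AOA, 61.4 ± 21.4 CPM in ICSI-AOA and 61.0 ± 26.4 CPM in ICSI (SD, n = 3 each). FPKM gave another picture. Igf2r was at 71.3, 10.3 and 10.3 FPKM in the dICSI-AOA libraries, 22.1, 15.5 and 16.3 FPKM in the ICSI-AOA libraries, and 0.312, 1.17 and 0.886 FPKM in the ICSI libraries. Every AOA library lay above every ICSI library, and dICSI-AOA replicate 1 stood above all others. The means were 30.6 ± 35.2 FPKM in dICSI-AOA, 18 ± 3.61 FPKM in ICSI-AOA and 0.788 ± 0.436 FPKM in ICSI (SD, n = 3 each).

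**Figure D1:**
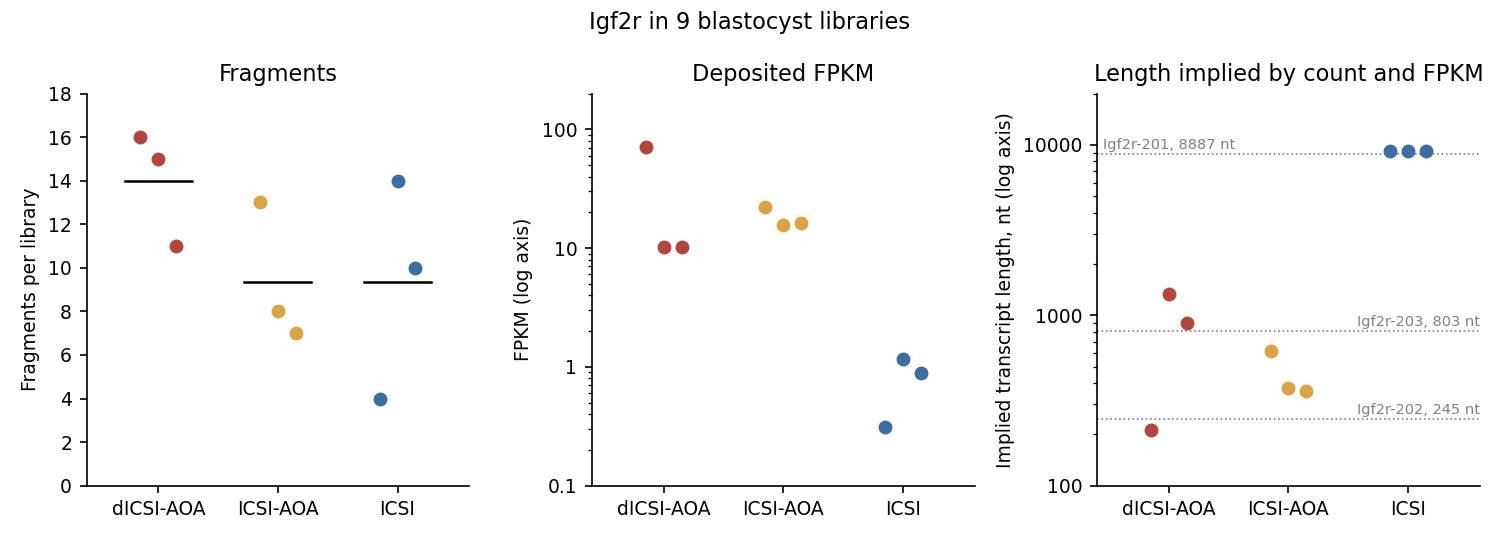
Igf2r in each library of dICSI-AOA, ICSI-AOA and ICSI, with 1 point a library: fragments (left, black lines are group means), deposited FPKM (middle, log axis) and the transcript length in nt that count and FPKM imply together (right, log axis, dotted lines at the annotated lengths of 8887, 803 and 245 nt). Fragments overlapped between the groups, with 7 to 16 in the AOA libraries and 4 to 14 in the ICSI libraries, while FPKM was 10.3 to 71.3 against 0.312 to 1.17.

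Most of the difference between both measures lay in the length by which the counts were divided. FPKM follows the deposited counts and so also carries the authors' factor for each library. With these factors the log2 fold change of Igf2r in both AOA groups against ICSI was 0.50 by edgeR, beside 0.18 with TMM scaling. The median of all tested genes was 0.31 with them, beside −0.02. A count divided by its FPKM gives a length, which was put in nt with genes of a single annotated transcript of over 3000 nt and at least 10 fragments. In the AOA libraries Igf2r was treated as 213, 1332 and 897 nt long (dICSI-AOA) and 614, 373 and 357 nt long (ICSI-AOA), and in the ICSI libraries as 9205, 9151 and 9156 nt long. The ICSI values were near the 8887 nt of Igf2r-201, and the AOA values were nearer to Igf2r-203 and Igf2r-202. For scale, single-transcript genes of 200 to 300 nt read as a median of 80.7 to 138 nt per library. Those of 700 to 900 nt read as 638 to 672 nt, and those of 7000 to 11000 nt as 7230 to 7938 nt. Single genes strayed from these medians in AOA and ICSI libraries. The shortest reading of a gene of 7000 to 11000 nt was 1398 to 5158 nt per library. The longest reading of a gene of 700 to 900 nt was 715 to 2913 nt. Among the 3152 tested genes with fragments in all 9 libraries, Igf2r had the largest difference in implied length between both AOA groups and ICSI. It was 17.5-fold shorter in the AOA libraries (log2 difference −4.13), against a median absolute log2 difference of 0.0240, and 39 of these genes (1.24%) differed by over 2-fold. Igf2r also ranked first in dICSI-AOA against ICSI (−3.85) and in ICSI-AOA against ICSI (−4.40), 2 comparisons that share the ICSI libraries. The tested genes were filtered on a mean of at least 1 FPKM, a value that depends on implied length. Igf2r passed that filter through the AOA libraries, with a mean of 0.788 FPKM in ICSI. These ranks thus rest on the values that let it pass, and are a description. Which transcript the fragments came from is not in the files, and whether the AOA libraries held short Igf2r transcripts was not tested.

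**Figure D2:**
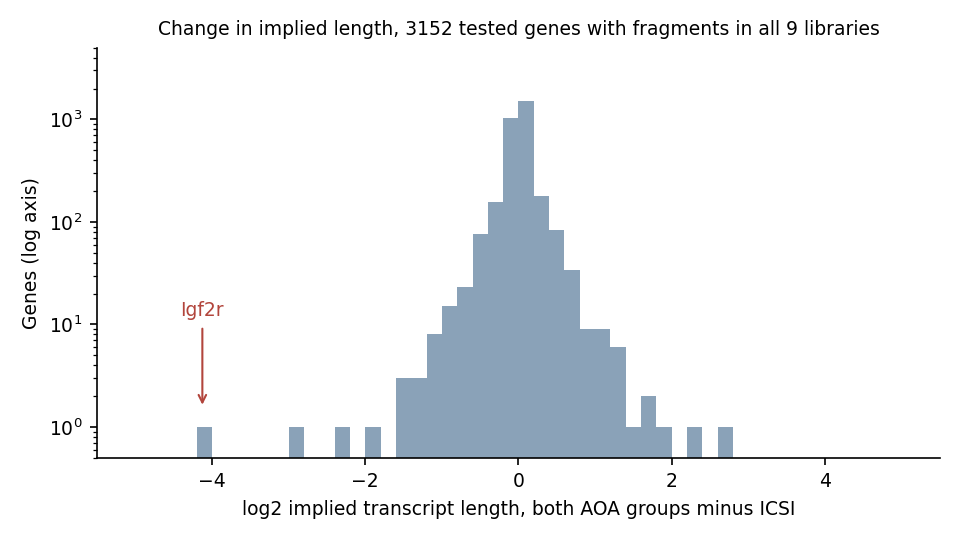
Histogram of the log2 difference in implied transcript length, mean of both AOA groups minus mean of ICSI, over the 3152 tested genes with fragments in all 9 libraries (number of genes on a log axis). Igf2r, at −4.13, lies farthest from 0.

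Whether Igf2r was called as changed depended on which value was tested. By edgeR's quasi-likelihood test on fragments its log2 fold change was 0.45 in dICSI-AOA against ICSI (SE 0.44, adjusted p = 0.912), −0.09 in ICSI-AOA against ICSI (SE 0.46, adjusted p = 0.991), 0.54 in dICSI-AOA against ICSI-AOA (SE 0.44, adjusted p = 0.866) and 0.18 in both AOA groups against ICSI (SE 0.39, adjusted p = 0.959). None was called, which took a change of more than 1.3-fold together with p below 0.05 before adjustment, the thresholds of the study. Of the 4304 tested genes 6.58%, 7.06%, 6.62% and 6.95% passed them in these comparisons. The ratio of fragments in both AOA groups to those in ICSI was 1.19, with a 95% counting interval of 0.758 to 1.92. A difference of that size was not detectable at this depth, with 98 Igf2r fragments over all 9 libraries.

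By limma on log2(FPKM + 1) Igf2r was called in 3 comparisons. The log2 fold change was 3.58 in dICSI-AOA against ICSI (SE 0.61, adjusted p = 0.156 from limma), 3.42 in ICSI-AOA against ICSI (SE 0.61, adjusted p = 0.413) and 3.50 in both AOA groups against ICSI (SE 0.53, adjusted p = 0.132). These adjusted p-values did not pass 0.05, and the calls rest on the FPKM values that let Igf2r pass the filter for testing. In dICSI-AOA against ICSI-AOA it was 0.16 (SE 0.61, adjusted p = 0.980) and not called. On FPKM 10.1%, 7.71%, 5.83% and 9.94% of the tested genes were called in dICSI-AOA against ICSI, ICSI-AOA against ICSI, dICSI-AOA against ICSI-AOA and both AOA groups against ICSI. The median log2 fold change of all tested genes on this scale was 0.28, 0.20, 0.09 and 0.24 in the same comparisons, below the values of Igf2r in the comparisons with ICSI, and 42, 63, 86 and 45 genes were called lower.

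By exact permutation of libraries, two-sided, the mean of log2(FPKM + 1) was 3.50 higher in both AOA groups than in ICSI (6 of 6 libraries above all 3 ICSI libraries, exact p = 0.0119, the smallest that 84 arrangements can give). For 3 against 3 libraries the smallest possible p is 0.10, which dICSI-AOA and ICSI-AOA each reached against ICSI. On log2 CPM of fragments the difference between both AOA groups and ICSI was 0.31 (exact permutation p = 0.417). FPKM of the groups did not overlap in 18.4% of the tested genes in dICSI-AOA against ICSI, 13.7% in ICSI-AOA against ICSI, 10.3% in dICSI-AOA against ICSI-AOA and 5.48% in both AOA groups against ICSI. Igf2r passed the filter for testing, a mean FPKM of at least 1 over all libraries, through the AOA groups, since its mean in ICSI was 0.788 FPKM.

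**Figure D3:**
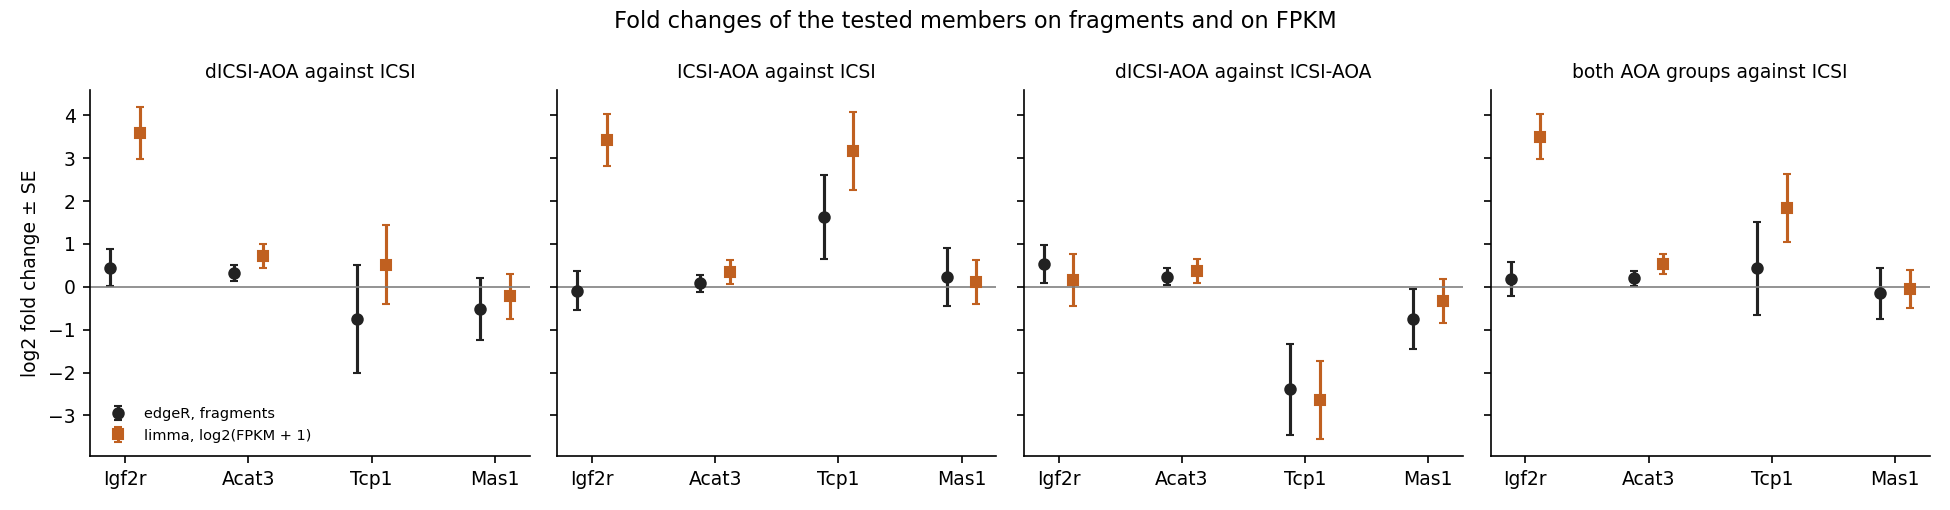
Log2 fold changes with SE of the 4 tested members in the 4 comparisons, from edgeR on fragments (circles) and limma on log2(FPKM + 1) (squares). For Igf2r the squares lie at 3.42 to 3.58 in the 3 comparisons with ICSI and the circles at −0.09 to 0.45.

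Acat3 (chr17:12923813-12940600, minus strand) was by far the best measured member, with 1598 fragments over all libraries. It had 224, 207 and 197 fragments in dICSI-AOA, 209, 165 and 143 in ICSI-AOA and 135, 143 and 175 in ICSI. Every dICSI-AOA library had more than every ICSI library, but in CPM the groups overlapped, at 1334 ± 115 CPM in dICSI-AOA, 1133 ± 228 CPM in ICSI-AOA and 1039 ± 203 CPM in ICSI (SD, n = 3 each). The log2 fold change from edgeR was 0.32 in dICSI-AOA against ICSI (SE 0.19, adjusted p = 0.795), 0.08 in ICSI-AOA against ICSI (SE 0.19) and 0.24 in dICSI-AOA against ICSI-AOA (SE 0.19), and Acat3 was not called in any comparison. It was called in dICSI-AOA against ICSI without ICSI replicate 6 (0.45), and with the authors' factors there (0.71) and in both AOA groups against ICSI (0.55). The ratio of CPM in dICSI-AOA to ICSI was 1.3 with a 95% counting interval of 1.15 to 1.47, and that of both AOA groups to ICSI 1.2 (1.08 to 1.35), intervals that leave out the spread between libraries. FPKM was 104, 93.2 and 81.0 in dICSI-AOA, 106, 58.1 and 58.0 in ICSI-AOA and 47.5, 53.1 and 69.2 in ICSI. On FPKM limma called Acat3 in dICSI-AOA against ICSI at 0.71 (SE 0.28, adjusted p = 0.460) and in both AOA groups against ICSI at 0.53 (SE 0.24, adjusted p = 0.501), beside the medians of 0.28 and 0.24 given above for all tested genes. Its implied length was 2027 to 2054 nt in every library, near the 2123 and 2144 nt of its coding transcripts, unlike that of Igf2r.

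The count of Acat3 is uncertain as to the gene it came from. Its neighbour Acat2, a cytosolic acetoacetyl-CoA thiolase, had 2 fragments over all libraries, and the longest coding transcripts of both genes were identical at 97.7% of 1477 aligned bases. Of all stretches of 100 nt in the longer coding Acat3 transcript, 37.2% occurred unchanged in an Acat2 transcript, so reads of both genes may have been divided between them in a way the files do not show. Acat3 also shared 571 exon bases, 23.5% of its own, with Tcp1 on the opposite strand.

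Tcp1 (chr17:12915701-12925067, plus strand) had few fragments and was the only member called on fragments. It had 0, 3 and 0 fragments in dICSI-AOA, 8, 3 and 6 in ICSI-AOA, and 0, 5 and 0 in ICSI. All 3 ICSI-AOA libraries had fragments, against 1 of 3 in each other group. Tcp1 was lower in dICSI-AOA than in ICSI-AOA, with a log2 fold change of −2.39 by edgeR (SE 1.06, unadjusted p = 0.0328, adjusted p = 0.714), and the ratio of CPM was 0.171 with a 95% counting interval of 0.0321 to 0.591. It was 1 called gene of 4 tested members, beside 6.62% of all tested genes. dICSI-AOA replicate 4 and ICSI-AOA replicate 4 had 3 fragments each, and the call was lost without dICSI-AOA replicate 1 (−1.84), dICSI-AOA replicate 5 (−1.83), ICSI-AOA replicate 1 (−2.06) or ICSI-AOA replicate 5 (−2.34), and by DESeq2 (−2.52). Without dICSI-AOA replicate 4, which held all its fragments in that group, it was −5.52.

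In ICSI-AOA against ICSI Tcp1 was at 1.62 by edgeR (SE 0.98, adjusted p = 0.762) and not called, although the ratio of CPM was 3.29 with a counting interval of 1.17 to 11.4, which leaves out the spread between libraries. ICSI replicate 5 held all 5 fragments of the ICSI group, and without it the value was 5.51 and called, as it was with the authors' factors (1.89). On FPKM Tcp1 was at 0, 11.2 and 0 in dICSI-AOA, 23.8, 8.82 and 11.1 in ICSI-AOA and 0, 3.11 and 0 in ICSI. There limma called it in ICSI-AOA against ICSI (3.16, SE 0.91, adjusted p = 0.490), in dICSI-AOA against ICSI-AOA (−2.64, SE 0.91, adjusted p = 0.758) and in both AOA groups against ICSI (1.84, SE 0.79, adjusted p = 0.474). As for Igf2r, the implied length was shorter in the AOA libraries with fragments, at 244 nt in dICSI-AOA and 352, 246 and 451 nt in ICSI-AOA, than in ICSI replicate 5, at 1228 nt. The coding transcript Tcp1-201 has 1902 nt, and the shortest of the 12 annotated transcripts has 329 nt.

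Tcp1 shared 571 of its 5030 exon bases with Acat3 and 141 with Mrpl18, a protein of the mitochondrial ribosome, both on the opposite strand. The 3 genes had the same locus field in the deposited table. Acat3 had 143 or more fragments in each ICSI-AOA library and at most 8 of Tcp1, and Mrpl18 had 4 fragments in ICSI-AOA replicate 4 and 0 in all other libraries. Both kits named for these libraries keep strand, but whether counting used it is not given in the sources used here, so fragments from the shared exons cannot be assigned to a gene with certainty.

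Mas1 (chr17:12841079-12868143, minus strand), which had the locus field of Igf2r in the table, shared no exon base with it. It had 2, 3 and 4 fragments in dICSI-AOA, 4, 5 and 6 in ICSI-AOA and 1, 6 and 5 in ICSI. The dICSI-AOA libraries lay at or below the ICSI-AOA libraries, and ICSI overlapped both. By edgeR its log2 fold change was −0.52 in dICSI-AOA against ICSI (SE 0.72), 0.23 in ICSI-AOA against ICSI (SE 0.67) and −0.75 in dICSI-AOA against ICSI-AOA (SE 0.70, adjusted p = 0.891), and it was not called in any comparison. FPKM was 1.21, 1.73 and 2.14 in dICSI-AOA, 2.65, 1.83 and 2.63 in ICSI-AOA and 0.308, 2.90 and 4.86 in ICSI, and limma did not call it. The ratio of CPM in dICSI-AOA to ICSI-AOA was 0.581 with a 95% counting interval of 0.224 to 1.42. Its implied length was 1576 to 1578 nt in dICSI-AOA, 1578 to 1971 nt in ICSI-AOA and 834 to 2331 nt in ICSI.

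Wtap (chr17:12966796-12994169, minus strand) did not reach the filter, with a mean of 0.765 FPKM over all libraries. It had 2, 5 and 2 fragments in dICSI-AOA, 1, 1 and 2 in ICSI-AOA and 3, 2 and 0 in ICSI, and fragments of the groups overlapped. FPKM was 0.797, 2.21 and 0.779 in dICSI-AOA, 0.528, 0.365 and 0.682 in ICSI-AOA and 0.818, 0.705 and 0 in ICSI. Every dICSI-AOA library thus lay above every ICSI-AOA library (exact permutation p = 0.10, the smallest possible). FPKM of these groups also did not overlap in 10.3% of the tested genes. With no filter edgeR gave a log2 fold change of 1.08 in dICSI-AOA against ICSI-AOA (SE 1.03, adjusted p = 0.797) and 0.68 in dICSI-AOA against ICSI (SE 1.0, adjusted p = 0.887). Its implied length was 1981 to 2629 nt, near the 2060 nt of Wtap-203. Pnldc1 (chr17:12888729-12910230, minus strand) and Plg (chr17:12378608-12419385, plus strand) were listed at 0 in all 9 libraries. For liver, where Plg is made, only Apoa1 and Ttr of 5 markers had fragments. Their summed level was 102 to 172 CPM in dICSI-AOA, 138 to 142 in ICSI-AOA and 140 to 212 in ICSI. Alb, Fgb and Serpina1a were listed at 0, so this sum cannot be read as a liver signal. So 4 of the 7 members were tested, 1 had fragments but was too low, and 2 had none.

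**Figure D4:**
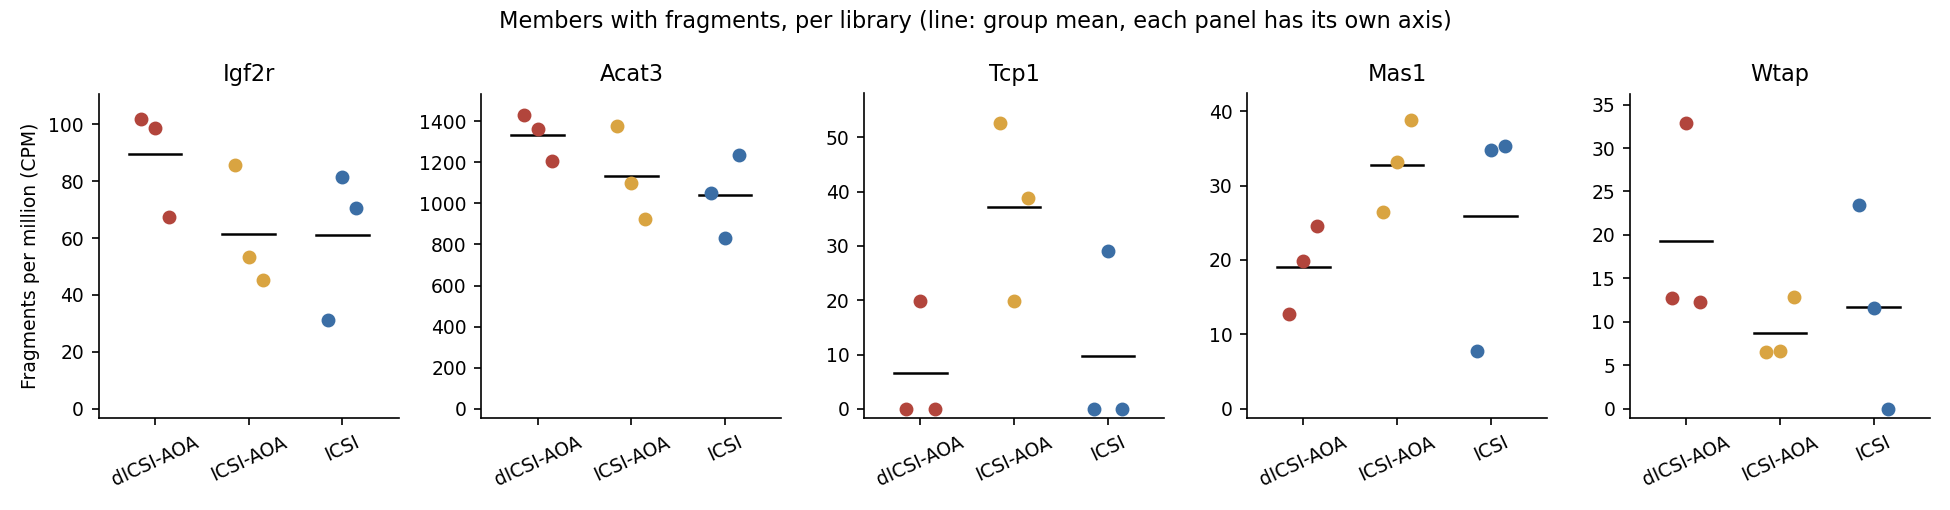
Fragments as CPM of the 5 members with fragments, with 1 point a library for dICSI-AOA, ICSI-AOA and ICSI and a line at the group mean; each panel has its own axis from 0. Acat3 lies at 830 to 1432 CPM and Igf2r at 31.2 to 102 CPM, and Tcp1 has 0 in 4 of 9 libraries.

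The genes around the members had few fragments. Within 500 kb of a member on chromosome 17 there were 24 other rows. Of these 6 were tested and 10 had 0 fragments in all libraries. None was called in any of the 4 comparisons, beside 6.58 to 7.06% of all tested genes. At that share, so few tested rows cannot show whether the region was unchanged. Slc22a2 and Slc22a3, organic cation transporters that are imprinted with Igf2r in mouse placenta, had 0 fragments. They were named for this after their values were seen. Of the 13 genes listed for the cluster 11 were in the table, 2 were tested and none was called, beside the same share. Map3k4, a stress-activated kinase kinase kinase, has 2 rows in the table, of which 1 held 2 fragments and the other 2516, the most of these neighbours. The higher row had 348, 283 and 302 fragments in dICSI-AOA, 281, 228 and 289 in ICSI-AOA and 244, 297 and 244 in ICSI. These groups overlapped.

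The pathway in which the receptor works was followed with a list of 36 genes, of which 7 rows were tested. By edgeR 1 was called higher and 2 lower in dICSI-AOA against ICSI, beside 6.58% of all tested genes called. In ICSI-AOA against ICSI 2 were higher and 0 lower, beside 7.06%, and in both AOA groups against ICSI 1 was higher and 1 lower, beside 6.95%. In dICSI-AOA against ICSI-AOA 2 were higher and 3 lower, beside 6.62%, with a median log2 fold change of −0.66 beside −0.02 for all tested genes. Both higher rows there were of 1 gene, Ap1g1, which so counts more than once in these numbers. Vps26b, a subunit of the retromer that returns the receptor from endosomes to the Golgi, had 32, 22 and 48 fragments in dICSI-AOA, 72, 77 and 55 in ICSI-AOA and 27, 18 and 20 in ICSI. All ICSI-AOA libraries lay above all others, on FPKM as well. FPKM of the groups did not overlap in 13.7% of the tested genes in ICSI-AOA against ICSI and 10.3% in dICSI-AOA against ICSI-AOA. That share was not counted for fragments. By edgeR Vps26b was called in ICSI-AOA against ICSI (1.52, SE 0.28, adjusted p = 0.0488), in dICSI-AOA against ICSI-AOA (−1.04, SE 0.27, adjusted p = 0.210) and in both AOA groups against ICSI (1.0, SE 0.26, adjusted p = 0.231). Its adjusted p in ICSI-AOA against ICSI ran from 1.11e-04 with no filter (edgeR) to 0.505 on log2(FPKM + 0.1) (limma) over the alternatives. Its implied length was 7026 to 7070 nt in every library, so fragments and FPKM gave like values (1.47 by limma in ICSI-AOA against ICSI, SE 0.34, adjusted p = 0.413).

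Vps29, another retromer subunit, had 7, 6 and 3 fragments in dICSI-AOA, 9, 10 and 9 in ICSI-AOA and 1, 7 and 2 in ICSI. Every ICSI-AOA library had more fragments than all others, and how many tested genes did so was not counted. On FPKM dICSI-AOA, at 2.49, 3.28 and 3.01, overlapped ICSI-AOA, at 4.92, 2.70 and 2.80, and ICSI was at 0.269, 2.0 and 0.606. The implied length of Vps29 ran from 839 to 2676 nt. Vps29 passed the filter for testing through the AOA groups, since its mean in ICSI was below 1 FPKM. It was called in ICSI-AOA against ICSI (1.37 by edgeR, SE 0.60, adjusted p = 0.611), and the call was lost without ICSI-AOA replicate 4 (1.32), ICSI-AOA replicate 5 (1.39), ICSI replicate 2 (1.02) or ICSI replicate 6 (1.13) and by DESeq2 (1.41). It fell outside the limit of 4 named genes a list and was added after its values were seen.

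Gnptg, Ctsb and Ap1g1 were the other called genes of the list. Gnptg, a subunit of the enzyme that makes the mannose 6-phosphate tag, had 19, 21 and 24 fragments in dICSI-AOA, 33, 35 and 31 in ICSI-AOA and 37, 42 and 28 in ICSI, and fell by 0.88 on the log2 scale in dICSI-AOA relative to ICSI (edgeR, SE 0.27, adjusted p = 0.377). Ctsb, which encodes the lysosomal protease cathepsin B, a tagged cargo, had 4, 12 and 8 fragments in dICSI-AOA, 18, 23 and 25 in ICSI-AOA and 9, 29 and 13 in ICSI, and was lower in dICSI-AOA than in ICSI-AOA (−1.48, SE 0.43, adjusted p = 0.396). Ap1g1, a subunit of the AP-1 adaptor of the clathrin coat, has 2 rows in the table. The row that rose more had 7, 18 and 21 fragments in dICSI-AOA, 5, 5 and 4 in ICSI-AOA and 5, 9 and 7 in ICSI (1.65 in dICSI-AOA against ICSI-AOA, SE 0.49, adjusted p = 0.396), and the other row was also called there (1.1, SE 0.44). Exons of Gnptg, Ctsb, Ap1g1 and Vps29 overlapped those of a gene on the opposite strand by 1113, 774, 1435 and 340 bases (Unkl, Fdft1, Gm17344 and Fam216a). The call of Gnptg against ICSI was lost on FPKM (−0.45 by limma) and with the authors' factors (−0.49), and that of Ctsb in dICSI-AOA against ICSI (−1.19) on FPKM (−0.52), with the authors' factors (−0.84) and without dICSI-AOA replicate 1 (−0.86) or ICSI replicate 5 (−0.67). Gnptg was also called in dICSI-AOA against ICSI-AOA (−0.66), a call lost on FPKM (−0.51), with the authors' factors (−0.56), by DESeq2 (−0.67) and without dICSI-AOA replicate 1 (−0.58) or ICSI-AOA replicate 4 (−0.62). The higher call of Ap1g1 in dICSI-AOA against ICSI (0.98) was lost by DESeq2 (0.99) and without dICSI-AOA replicate 4 (0.81) or 5 (0.73), or ICSI replicate 2 (0.87), 5 (1.12) or 6 (1.0). The other row of Ap1g1 was at 0.19 there (edgeR, SE 0.41) and was not called.

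The lists built around the other members held few tested genes, and their calls stand beside the 6.58 to 7.06% of all tested genes called. Of 16 genes of the CCT chaperonin and prefoldin, 4 were tested, and Cct8l1, a paralog of a CCT subunit, was called in dICSI-AOA against ICSI-AOA at 0.91 (SE 0.35, adjusted p = 0.654 from edgeR), with 19, 21 and 26 fragments in dICSI-AOA against 13, 10 and 11 in ICSI-AOA, a call that was lost without dICSI-AOA replicate 5 (0.80) and by DESeq2 (0.91). Of 15 genes of RNA methylation 7 were tested, with a median of −0.20 in both AOA groups against ICSI. There Zc3h13, a subunit of the writer complex with Wtap, was called at −0.97 (SE 0.41, adjusted p = 0.596), with 10, 13 and 3 fragments in dICSI-AOA, 12, 5 and 16 in ICSI-AOA and 10, 31 and 13 in ICSI, and the call was lost without dICSI-AOA replicate 5 (−0.76), ICSI-AOA replicate 4 (−0.79) or ICSI replicate 5 (−0.43), by DESeq2 (−0.97), with the authors' factors (−0.66) and on FPKM (−0.39 by limma). Mettl14, of the methyltransferase core, was called in ICSI-AOA against ICSI at −0.41 (SE 0.18, adjusted p = 0.599), with 289, 311 and 261 fragments in ICSI-AOA against 253, 468 and 356 in ICSI. Its call was lost without ICSI-AOA replicate 1 (−0.41), ICSI-AOA replicate 5 (−0.35), ICSI replicate 5 (−0.27) or ICSI replicate 6 (−0.40), on FPKM (−0.12 by limma), and with total fragments (−0.35) or the authors' factors (−0.15) for scaling. Of 19 genes of piRNA trimming and poly(A) removal 4 were tested, and Pld6, a nuclease of piRNA processing on the mitochondrial surface, was called in dICSI-AOA against ICSI-AOA at 2.82 (SE 0.99, adjusted p = 0.587), with 6, 3 and 8 fragments in dICSI-AOA against 0, 2 and 0 in ICSI-AOA. Its FPKM was 4.25, 1.65 and 5.19 in dICSI-AOA, 0, 0.941 and 0 in ICSI-AOA and 1.31, 0.458 and 2.94 in ICSI, and it passed the filter for testing through dICSI-AOA, where it was highest. Zc3h13 was also called in dICSI-AOA against ICSI (edgeR, −1.15, SE 0.49, adjusted p = 0.649), a call lost without dICSI-AOA replicate 5 (−0.73) or ICSI replicate 5 (−0.62), on FPKM (−0.47 by limma), with the authors' factors (−0.80) and by DESeq2 (−1.15).

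No gene of the remaining lists was called by edgeR in the 4 comparisons, beside 6.58 to 7.06% of all tested genes, and few were tested. Of thiolase and ketone body enzymes 3 of 13 were tested. Of the renin-angiotensin list 3 of 13 were tested, led by the aminopeptidase gene Anpep with 100 fragments over all libraries. Of plasminogen activation 1 of 15 was tested, the plasminogen receptor Plgrkt with 21 fragments over all libraries.

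The tested genes whose FPKM was most like that of Igf2r across the 9 libraries were B4galt3 (Pearson's r = 0.943), Syn1 (0.941), Erp29 (0.932), Mcmdc2 (0.931) and Evi2a (0.931), on log2(FPKM + 1). For Tcp1 they were Rufy1 (0.942), Mif4gd (0.934), Serpind1 (0.898), Myo9a (0.894) and Nim1 (0.894). These correlations are a description over 9 libraries that fall into 3 groups and share depth and scaling, and the likeness to Igf2r rests on FPKM and so on its implied length as given above. Total fragments of the genes named ran from 10 for Rufy1 to 8919 for Myo9a.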

How the data were processed

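RNA was sequenced from 9 libraries of 5 pooled blastocysts. The deposited estimated counts came from Cuffdiff, after trimming with cutadapt 1.9.3 and alignment with HISAT2 to mm10, and the deposited FPKM values came from the same Cuffdiff run by the authors. The study's text and the labels name different stranded kits, and use of strand in counting is not given in the sources used here. The estimated counts were divided by a factor for each library (0.866772 to 1.27802) and rounded to fragments, and 95.7 to 96.2% were whole within 0.01. The 4304 genes whose FPKM averaged 1 or more over all libraries were tested with edgeR 4.0.16 (quasi-likelihood test, TMM, all 9 libraries, R 4.3.3) and Benjamini-Hochberg adjustment. Called meant a fold over 1.3 and p below 0.05 unadjusted. limma 3.58.1 on log2(FPKM + 1), DESeq2 1.42.0, other filters, scalings and pseudocounts, the replicate block and leaving out each library were alternatives. Members and lists were chosen with earlier results of these data known. Named were the members, genes sharing their locus field, at most 4 called genes of each list (the smallest p first) or its gene with most fragments where none was called, and the 5 genes most correlated with Igf2r and with Tcp1. The study describes the libraries as independent replicates. Implied lengths were scaled on 71 to 81 genes per library, and intervals cover counting error only. Only the edgeR test was also run on simulated fragments with known changes, with their spread taken from these data.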

Additional observations from a re-analysis of the deposited data

Results flagged for a closer look

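The genes below differed between the AOA groups, dICSI-AOA against ICSI-AOA, by edgeR's unadjusted p. This comparison is the direct test of whether they stood differently against ICSI in both AOA groups. Lower in dICSI-AOA were Tcp1 (log2 fold change −2.39), Ctsb (−1.48), Vps26b (−1.04) and Gnptg (−0.66). Higher in dICSI-AOA were Pld6 (2.82), Ap1g1 (1.65) and Cct8l1 (0.91). Adjusted p-values from edgeR were 0.210 for Vps26b and 0.396 to 0.714 for the others, so none passed 0.05 after adjustment. Vps26b passed it with no filter (adjusted p = 0.0440) and with the replicate block (0.0179), and over all its alternatives the adjusted p was 0.0179 to 0.918. Gnptg, Tcp1 and Cct8l1 lost their calls in some alternatives, and Pld6 passed the filter for testing through dICSI-AOA. Of all tested genes 6.62% were called in this comparison. Igf2r was not among them (0.54).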

How the results depend on the processing

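The number of genes called changed by over 1.5 times with several settings. With no filter it was 467 in dICSI-AOA against ICSI, 529 in ICSI-AOA against ICSI, 503 in dICSI-AOA against ICSI-AOA and 591 in both AOA groups against ICSI. With a mean FPKM of at least 5 it was 135, 157, 134 and 145, and by DESeq2 133, 146, 121 and 151. In dICSI-AOA against ICSI limma called 434 (pseudocount 1) and 425 (pseudocount 0.1). With the authors' factors 555 were called there and 504 in both AOA groups against ICSI. Those factors gave 510 higher and 45 lower, beside 132 and 151 with TMM, in dICSI-AOA against ICSI, 306 and 45, beside 129 and 175, in ICSI-AOA against ICSI, 185 and 74, beside 156 and 129, in dICSI-AOA against ICSI-AOA, and 461 and 43, beside 113 and 186, in both AOA groups against ICSI. On FPKM limma (pseudocount 1) gave 392 and 42, 269 and 63, 165 and 86, and 383 and 45 in these comparisons, and scaling to total fragments 176 and 123, 156 and 138, 150 and 130, and 153 and 152. Leaving out a library gave 240 to 339, 241 to 330, 217 to 347 and 264 to 332 calls in the 4 comparisons.

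Igf2r was called by limma on FPKM, at 3.58 and 4.62 (pseudocounts 1 and 0.1) in dICSI-AOA against ICSI, 3.42 and 4.48 in ICSI-AOA against ICSI and 3.50 and 4.55 in both AOA groups against ICSI. With the authors' factors it was 0.18 in ICSI-AOA against ICSI. Without a library it ranged over −0.40 to 0.23 in ICSI-AOA against ICSI and −0.11 to 0.50 in both AOA groups against ICSI. Tcp1 in dICSI-AOA against ICSI was 0.52 and 0.61 by limma, −0.14 on log2 CPM and −3.89 to 3.12 without a library, and −1.13 to 4.31 in both AOA groups against ICSI. Mas1 in both AOA groups against ICSI was 0.18 by limma and by permutation with pseudocount 0.1, 0.14 with the authors' factors, 0.10 on log2 CPM and −0.54 to 0.17 without a library, and −0.16 to 0.54 in ICSI-AOA against ICSI. Acat3 in ICSI-AOA against ICSI was −0.08 to 0.20 without a library, and Wtap there −0.03 on log2 CPM. For changes of sign other than with the length, the cause was not tested.

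Same-numbered libraries of both AOA groups did not deviate together (r = 0.0637, −0.0128 and 0.0558). With the replicate block 292 genes were called, Igf2r was at 0.56 and Tcp1 at −2.41, and no member's call changed; 19 genes passed an adjusted p of 0.05 by edgeR, against 6 without it. Among these was Vps26b (adjusted p = 0.0179 by edgeR). Counting limits Igf2r, with 98 fragments in all. For Tcp1, with 25, fragments were in 1 of 3 libraries of dICSI-AOA and of ICSI.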

Other observations

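After Igf2r, the tested genes with the largest shortening of implied length in both AOA groups against ICSI were Luzp1 (log2 difference −2.90), Bptf (−2.30), Dync1h1 (−1.94) and Arhgap26 (−1.56). Dync1h1 encodes the heavy chain of cytoplasmic dynein and Bptf a subunit of a chromatin remodeller. They were chosen after their values were seen, and no test was run on them. Of the 3152 genes compared, 22 were shorter and 40 longer in all AOA libraries than in all ICSI libraries.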
